A study of Drosophila melanogaster with 212 samples.

Results

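Nervy-mutant and wild-type females were compared in 90 single neurons, 50 from mutants and 40 from wild type, out of a series of 54 mutant and 51 wild-type female cells with 56 and 51 male ones. The cells were the female columns of 1 count table whose name carries S192 or a higher S number. They were chosen by measured values as well: a total of 10000 counts or more, 500 or more genes with a read, and Tdc2 at 100 or more counts per 1000000 (CPM). The Tdc2 levels given here are therefore a description. Each cell was taken from the brain of a fly kept in vials of 15 until day 6, and was sorted by the fluorescence of a GFP carried at the membrane of octopaminergic or tyraminergic neurons. All groups shared this reporter. The labels call the flies mutant or wild type, and name neither the nervy allele nor the driver of the reporter, so how completely the allele removes the protein is not given. They name no animal either. Each genotype was thus 1 sample whatever its number of cells, no difference below has a replicate check or a p-value, and every interval covers counting error only.

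Octopamine and tyramine are the insect counterparts of noradrenaline and adrenaline and act in arousal, aggression, egg laying and feeding. In these neurons tyrosine decarboxylase 2 (Tdc2) makes tyramine, tyramine beta-hydroxylase (Tbh) turns tyramine into octopamine, and the vesicular monoamine transporter (Vmat) loads both into vesicles. Nervy, encoded by nvy, is the fly member of the ETO/MTG family of transcriptional corepressors, and it also anchors protein kinase A to Plexin A during axon guidance.

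Columns that resembled each other were dealt with before the genotypes were compared. A pair of mutant columns, MFB34 and MFB35, correlated at 0.979 over 7500 genes, against at most 0.907 between cells outside such pairs, and was averaged into 1 cell, which left 49 mutant cells. Mutant cell MFD4 and wild-type cell WFD4 correlated at 0.978 and had 93.0% of their genes with a read in common, although their labels differ in genotype. Both were kept, and the ratios without them are given among the alternatives. Counts per cell ranged from 39778 to 2718075 in mutants (median 658222) and from 20875 to 3045780 in wild type (median 801322). Genotype was largely split by the S number of the columns, whose meaning is not stated: 12 mutant and 34 wild-type cells ran from S192 to S240, and 37 mutant and 6 wild-type cells lay at S241 or higher. Ratios within these stretches stand beside the results for that reason. Mutant cells MFB13 and MFB20 stood apart with 2058 and 2136 genes, where the fewest genes in a wild-type cell were 3776.

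The markers fixed for octopaminergic or tyraminergic neurons were present in both genotypes. Vmat ranged from 59434 CPM through a median of 92752 to 126515 CPM in mutant cells, and from 48719 through 96768 to 143154 CPM in wild-type cells. Tdc2 ranged from 1238 through 5757 to 16502 CPM in mutants and from 2607 through 5488 to 15562 CPM in wild type. Closest to the threshold on the inside were MFB13 at 1238 CPM and MFB20 at 2247 CPM among mutants, and WFB20 at 2607 CPM and WFB41 at 2797 CPM in wild type. On the outside lay mutant cell MFB18 with no Tdc2 read. The neuronal markers nSyb, elav, Syt1 and brp together ranged from 4261 to 7857 CPM in mutant cells and from 4483 to 8635 CPM in wild-type cells. Of 7 glial markers all had reads in both groups, with a summed level of 148.04 CPM in mutants and 219.3 CPM in wild type. Their level per cell ranged from 0 to 1106 and from 0 to 1127 CPM.

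The targeted gene nvy lies on 2R, from 24275734 to 24291084 on dm6. It was lower in mutants in the sums, at 9.85 CPM (369 counts, interval 8.87 to 10.9) against 17.8 CPM (649 counts, 16.4 to 19.2), a log2 ratio of -0.79. Most cells had no read of it: the median was 0 in both genotypes, the highest cell held 114 CPM in mutants and 281.96 CPM in wild type, and reads were found in 16 of 49 and 8 of 40 cells. The groups overlapped throughout. The labels do not say which part of the gene the allele alters, so reads counted over all its exons do not check the genotype.

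The nvy reads were concentrated in neurons with Tdc2 and little Tbh (under 100 CPM). Such cells, which carry the enzyme for tyramine and nearly none for octopamine, were 3 of 49 in mutants (6.12%, Clopper-Pearson interval 1.28 to 16.9%) and 4 of 40 in wild type (10%, 2.79 to 23.7%). These intervals are over cells of 1 sample per genotype and do not compare the genotypes. The cells with little Tbh held 58.5% of all mutant nvy counts and 92.2% of the wild-type ones, while holding 7.65% and 10.8% of all counts. In the wild-type cells of this kind nvy was at 36.8, 147.6, 167 and 281.96 CPM, and in the mutant ones at 17.3, 58.1 and 114 CPM. Summed over them, nvy stood at 75.4 CPM (65.7 to 86.1) for mutants against 152 CPM (140 to 165) for wild type, a log2 ratio of -1.001. In the neurons with Tbh the order was the opposite, with mutants at 4.42 CPM (3.75 to 5.18) and wild type at 1.55 CPM (1.17 to 2.06), a log2 ratio of 1.09, with reads in 13 of 46 and 4 of 36 cells. Within stretches of S numbers the pooled nvy ratio was -3.27 from S192 to S240 and 3.83 above, so its sign was not the same in both. The 4 wild-type cells with little Tbh all lay in the lower stretch. Of the mutant ones, MFB32 lay there too, and MFB5 and MFB42 in the higher stretch.

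**Figure D1:**
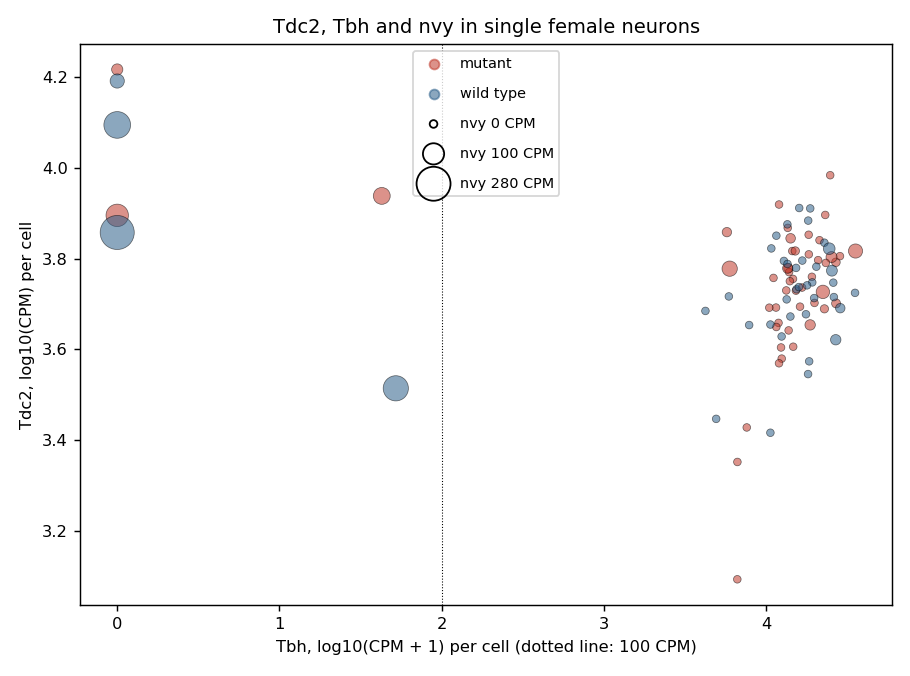
Each circle is 1 female neuron, red for mutant and blue for wild type, placed by its Tbh (horizontal, log10(CPM + 1)) and its Tdc2 (vertical, log10 CPM), with an area that grows with nvy. The 7 cells left of the dotted line at 100 CPM of Tbh include the highest nvy levels of both genotypes, 281.96 CPM in wild type and 114 CPM in mutants, and the remaining cells of both genotypes lie in 1 cloud.

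The vesicular loader and the enzyme for octopamine had like sums in both genotypes. Vmat was at 93705 CPM in mutants against 101411 CPM in wild type (log2 ratio -0.11), and Tbh at 14436 against 16082 CPM (-0.16). Tdc2, by which the cells were chosen, was at 5722 against 5869 CPM (-0.04). Of the other genes of synthesis and loading, Pu, which starts the synthesis of a pterin cofactor, was at 515 against 492 CPM (0.07), and Ddc, the decarboxylase of serotonin and dopamine synthesis, at 243.2 against 157.5 CPM (0.62). Of 8 listed receptors for these amines 6 were tested, and their median was -0.25. None of them reached 2-fold, where all genes tested gave 1.76% higher and 1.09% lower. The extremes were Octbeta2R, a beta-adrenergic-like octopamine receptor, at 40.7 against 66.4 CPM (-0.69), and the octopamine-tyramine receptor Oct-TyrR at 76.97 against 46.01 CPM (0.73). With the wild-type cells below S192 added, the Oct-TyrR ratio was -0.17.

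Across the transcriptome most genes had like sums in both genotypes. Over the 5391 genes whose mean of both groups reached 20 CPM, 95 (1.76%) were at least 2-fold higher in mutants and 59 (1.09%) at least 2-fold lower, and the middle 90% of log2 ratios lay between -0.61 and 0.71 with a median of 0.02. The ratio was log2 of CPM + 1 in mutants over CPM + 1 in wild type, which understates the ratio of genes with few counts. These 2-fold genes were mostly low, with a median level of 31.3 CPM against 66.6 CPM for all genes tested. A gene could reach 20 CPM through the genotype where it was high alone, so the counts over gene lists given further on describe the tested members and leave out those that were low in both. When a gene also had to keep 2-fold without the cell of each group that held most of its reads and in the mean of per-cell CPM, 37 genes (0.686%) were higher and 16 (0.297%) lower. No gene had mutant and wild-type cells that did not overlap. The near-identical cells MFD4 and WFD4 stood in opposite groups, so this was nearly fixed in advance and tells little about genotype. After thinning each cell to 200000 reads, which 43 mutant and 34 wild-type cells reached, mutant cells had a median of 5217 genes with a read and wild-type cells 5144. Unthinned, the medians were 5599 and 5688.5, in the opposite order.

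**Figure D2:**
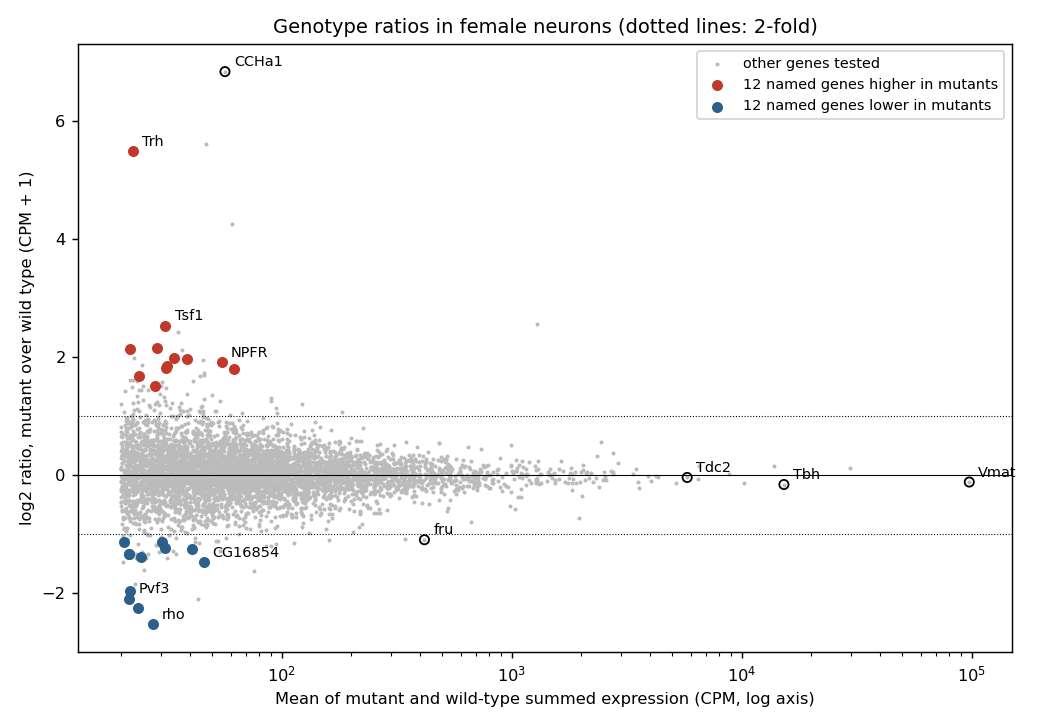
Each point is 1 of 5391 genes, with the mean of its mutant and wild-type sums (horizontal, CPM, log axis) and its log2 ratio, mutant over wild type (vertical). The red and blue points are the 12 genes named as higher and the 12 named as lower, all below 70 CPM, and open circles mark further genes of the text; Vmat, Tdc2 and Tbh lie close to 0.

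The naming rule picked 12 genes that were higher in mutants, by the smallest of 3 ratios (sums, sums without the top cell of the gene, and mean of per-cell CPM). The values that chose them are given as a description. Tsf1, which encodes the iron-binding protein transferrin 1 (X, 18387084 to 18390344), was at 54.1 CPM (51.7 to 56.5) in mutants against 8.50 CPM (7.59 to 9.51) in wild type, a log2 ratio of 2.54. Its median was 0 in both, its highest cells held 737 and 131 CPM, and 1 mutant cell, MFB50, carried 55.04% of the mutant counts. Without the top cells the ratio was 2.05. NPFR, the receptor of neuropeptide F (3R, 6187315 to 6195403), was at 87.5 CPM (84.5 to 90.6) against 22.5 CPM (21.02 to 24.1), a ratio of 1.91. It reached 100 CPM in 11 of 49 mutant cells and 3 of 40 wild-type cells, and its highest cells held 663 and 409 CPM. The homeodomain transcription factor gene pros, known for directing neural cell fate, was at 97.4 against 27.4 CPM (1.79), with 7 of 49 and 2 of 40 cells at 100 CPM or more. High NPFR and high pros were thus each seen in a minority of neurons of both genotypes. In wild type 1 cell held 63.6% of the pros counts. With the wild-type cells below S192 added, the pros ratio was 0.73.

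Among the genes named as higher, Mtr4, Ssu72 and Saf6 have roles in RNA processing or transcription. Mtr4, an RNA helicase that feeds the nuclear exosome, was at 62.3 against 15.1 CPM (1.98), and its median cell held 11.6 CPM in mutants and 0 in wild type. Ssu72, a phosphatase of the tail of RNA polymerase II, was at 50.2 against 13.1 CPM (1.86). Saf6, a subunit of the SAGA histone acetyltransferase complex, was at 49.7 against 13.4 CPM (1.81). The cells with the highest CPM of these genes were the gene-poor mutants MFB13 (Mtr4 at 711 CPM, Ssu72 at 833 CPM) and MFB20 (Saf6 at 618 CPM). Without cells under 3000 genes the ratios were 1.22 for Mtr4, 1.45 for Ssu72 and 0.99 for Saf6, and 1.30 for Keap1, the adaptor that holds the oxidative stress factor CncC in check, which had been at 2.14.

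The other genes named as higher were beat-IIIc, a Beat-family immunoglobulin protein, at 42.1 against 14.03 CPM (1.52), CG10738, a predicted receptor guanylyl cyclase, at 54.8 against 13 CPM (2.0), CG4552 at 47.8 against 9.92 CPM (2.16) and CG7607 at 36.9 against 10.9 CPM (1.68). Trh, whose enzyme starts serotonin synthesis, met the rule with 1692 counts in mutants and 1 in wild type, but 93.8% of the mutant counts came from the single cell MFB43. In the thinned cells it had a read in 3 of 43 mutants and 1 of 34 wild-type cells.

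The 12 genes named as lower were led by rho, which encodes the protease Rhomboid that releases EGF receptor ligands (3L, 1463811 to 1468944). It was at 7.46 CPM (6.63 to 8.40) in mutants against 47.8 CPM (45.6 to 50.1) in wild type, a log2 ratio of -2.53, with 915 CPM in the highest wild-type cell and 102 CPM in the highest mutant cell. Reads of rho were found in 7 of 49 and 9 of 40 cells, and 1 wild-type cell, WFB28, carried 52.8% of the wild-type counts. Pvf3, a PDGF- and VEGF-like growth factor (2L, 7098188 to 7157695), was at 7.68 against 35.9 CPM (-2.09). CG32698 was at 7.60 against 39.96 CPM (-2.25), and CG8641 at 13.04 against 35.8 CPM (-1.39). All of these had a median of 0 in both genotypes.

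The astrocyte gene alrm, a leucine-rich repeat protein, was at 8.40 against 35.4 CPM (-1.95) and is 1 of the 7 glial markers, whose summed level was also lower in mutants (148.04 against 219.3 CPM). Within that list repo, the transcription factor of most glia, was at 0.29 against 0.96 CPM. The part of glial RNA in the alrm value was not tested. With mutant cell MFB18 kept in, which had no Tdc2 read, the alrm ratio was 0.33.

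Further genes named as lower were read in many cells of both genotypes. CG11898, a predicted ABC transporter, was at 23.8 CPM (22.3 to 25.4) against 58.1 CPM (55.6 to 60.6), a ratio of -1.25. Its cells ranged from 0 through 13.6 to 86.3 CPM in mutants and from 0 through 25.7 to 292 CPM in wild type. CG16854 was at 23.8 against 67.8 CPM (-1.48), with medians of 0 and 40.2 CPM per cell. The exoribonuclease gene pcm, which degrades decapped RNA, was at 18.5 against 41.9 CPM (-1.14), with medians of 0 and 24.5 CPM. The gene l(1)G0007, an RNA helicase of the spliceosome, was at 18.1 against 44.01 CPM (-1.24), with medians of 0 and 21.5 CPM. Thinned mutant cells had reads of CG16854 in 34.9% (15 of 43, interval 21.01 to 50.9%), and thinned wild-type cells in 61.8% (21 of 34, 43.6 to 77.8%). CG31038, CG16896 and rswl completed the list with ratios of -1.33, -1.12 and -1.33. Of the bases in exons, CG11898 shares 7.11% with jus, and Trh shares 4.08% with CG13912. The marker gene Vmat shares 26.2% with CG13330, and Ddc shares 3.15% with CG10561. Use of strand in counting is not given, so reads there cannot be assigned.

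**Figure D3:**
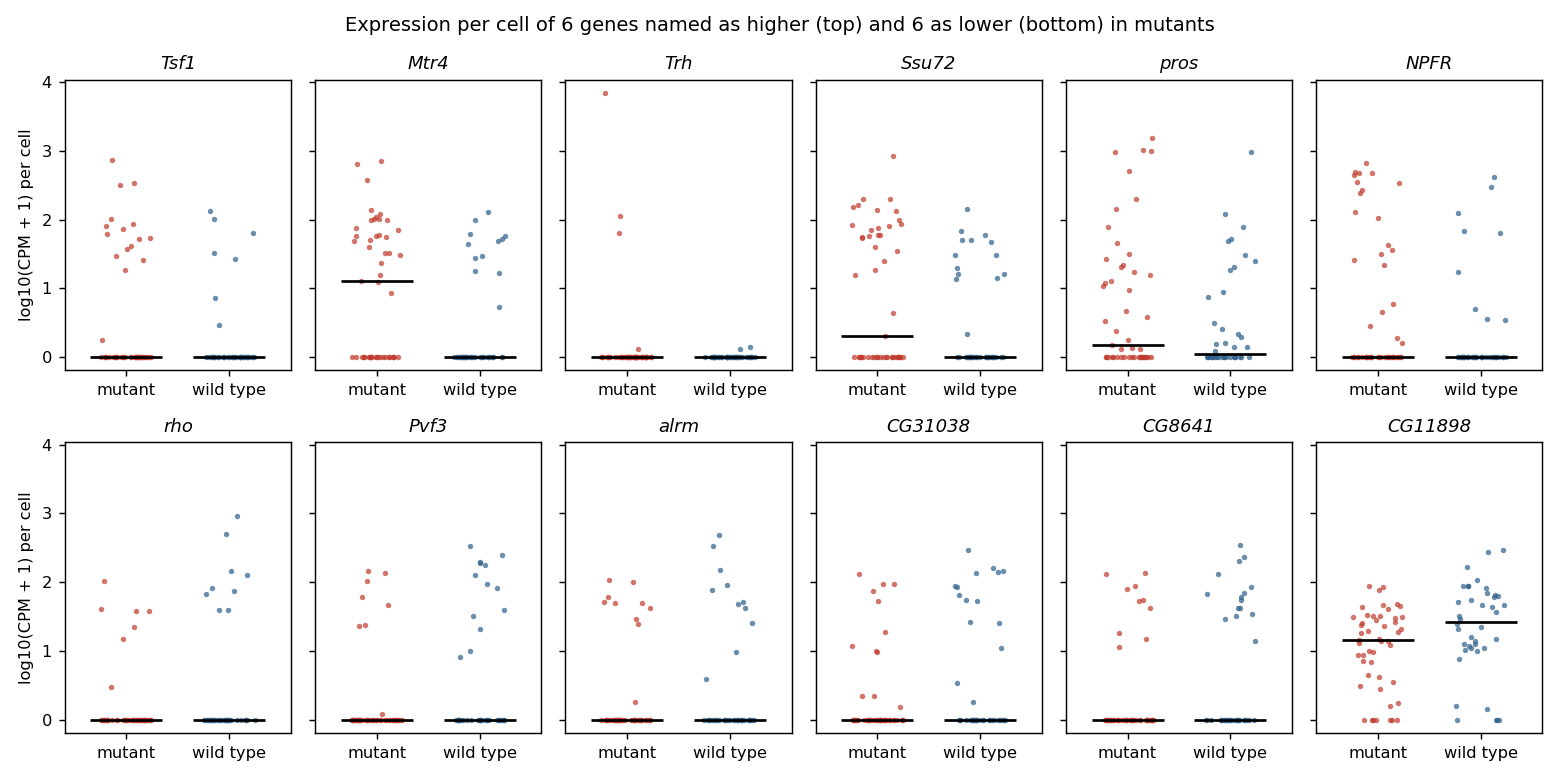
Each point is 1 neuron and shows log10(CPM + 1) of the gene above the panel, mutant in red and wild type in blue, with a black bar at the median. The top panels hold 6 genes named as higher and the bottom panels 6 named as lower; the genotypes overlap in every panel, and most cells of most genes lie at 0.

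Within the stretches of S numbers the genotype ratios did not recur across the transcriptome. Of the 5391 genes, 49.9% had 1 direction in both stretches, 70 were at least 2-fold in 1 direction in both and 99 at least 2-fold in opposite directions. The ratios from the lower stretch and the higher stretch correlated at -0.07 across genes, which are not independent replicates; the higher stretch rests on 6 wild-type cells. Of the 12 genes named as higher, 11 had 1 direction in both stretches, and NPFR, at 3.21 and -0.20, did not. Of the 12 named as lower, 8 did. The exceptions were rho (-3.45 and 3.28), Pvf3 (-2.88 and 2.25), CG16896 (-2.11 and 1.80) and CG32698 (-2.28 and 3.01). Both stretches contributed to the choice of these genes, so a shared direction follows in part from the rule. CG11898 (-1.33 and -1.93), pcm (-1.52 and -1.38), CG16854 (-1.94 and -1.55), Keap1 (2.05 and 2.24) and Ssu72 (2.09 and 1.48) were of like size in both.

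Males of the same genotypes, from 44 mutant and 38 wild-type cells, carry the same labels of genotype. They passed the same minima of counts, genes and Tdc2, with no minimum on the S number. All male columns lay below S192 and all female cells compared at S192 or higher, so sex and S number cannot be told apart. Of 14 near-identical pairs among these male cells, 6 joined a mutant to a wild-type column, so male values are given with and without such pairs, the latter from 35 and 27 cells. Of the 5391 genes 51.8% had 1 direction in both sexes, and the ratios correlated at -0.01 across genes (without pairs 51.9%, and a correlation of -0.002). Among the 12 genes named as higher in females, 5 were above 0 in males and the median male ratio was -0.29; without pairs 6 were, with a median of -0.08. Among the 12 named as lower, 9 were below 0 in males, with a median of -0.13, and without pairs 7 were, with a median of -0.07. The median male ratio of all genes was 0.01, and 0.03 without pairs. Saf6 was higher in mutants of both sexes (1.81 in females, 2.17 in males at 32.9 against 6.542 CPM), and so was NPFR (1.91 and 1.03, at 80.1 against 38.8 CPM in males). Saf6 was also among the genes fixed with earlier results of these data known, so its male value is no independent check. By the same sums 1.27% of male genes were at least 2-fold higher in mutants and 1.66% lower. Over all genes 6 were at least 2-fold in 1 direction in both sexes and 12 in opposite directions, and without pairs 11 and 18. The male ratio of Saf6 was then 3.26 and that of NPFR 1.09.

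**Figure D4:**
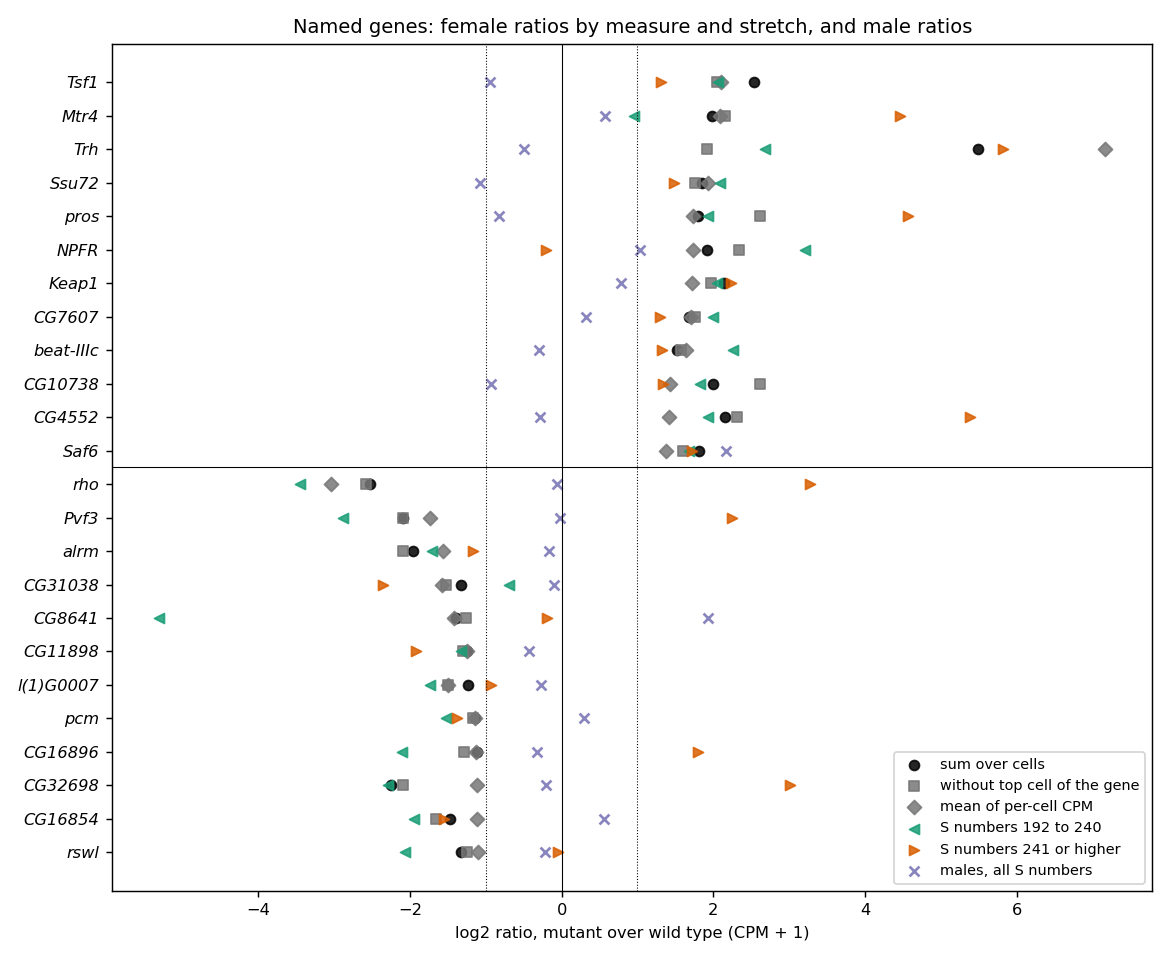
For the 12 genes named as higher (above the line) and the 12 named as lower, points show the log2 ratio, mutant over wild type, in the female sums, without the top cell of each gene, as the mean of per-cell CPM, in each stretch of S numbers, and in males. The triangles for the higher stretch lie on the opposite side of 0 for NPFR, rho, Pvf3, CG16896 and CG32698, and the crosses for males scatter around 0 (medians of -0.29 and -0.13, or -0.08 and -0.07 without near-identical pairs).

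Of 36 listed receptors for neuropeptides, 16 were tested. Of these, 11 were above 0 (all genes tested: 53.3%), and their median was 0.20 against 0.02 for all genes. At least 2-fold higher were 2 and none 2-fold lower, where all genes tested gave 1.76% and 1.09%. Within the stretches of S numbers the list's medians were 0.36 and 0.68. Besides NPFR, the gene past 2-fold was Dh44-R1, a receptor for the diuretic hormone 44 peptide, at 126.95 CPM (123.4 to 131) against 52.5 CPM (50.2 to 54.9), a ratio of 1.26. It was at 100 CPM or more in 19 of 49 and 8 of 40 cells, and its ratios in the stretches were 1.36 and 0.86. With the wild-type cells below S192 added, its ratio was 0.43. Dh31-R, the receptor of diuretic hormone 31, was at 92.8 against 48.5 CPM (0.92), with a median cell of 46.2 CPM in mutants and 0 in wild type. After thinning it had a read in 27 of 43 mutant cells (62.8%) and 8 of 34 wild-type cells (23.5%). CCKLR-17D3, which binds sulfakinins, was at 70.3 against 36.8 CPM (0.92). Dh44-R2 was at 74.9 against 39.8 CPM (0.90), a ratio that was 0.27 with the wild-type cells below S192 added. ETHR, the receptor of ecdysis-triggering hormone, was at 45.5 against 25.6 CPM (0.81). ETHR reached 100 CPM in 2 of 49 mutant and 3 of 40 wild-type cells. Its top cells held 42.3% of the mutant and 48.6% of the wild-type counts. CCKLR-17D3 and ETHR were not picked by the naming rule.

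Neuropeptide genes themselves differed through few cells. Of 37 listed, 9 were tested, and 3 of these were at least 2-fold higher and 2 at least 2-fold lower, where all genes tested gave 1.76% and 1.09%. CCHa1, AstC, Ms and Proc reached the minimum of 20 CPM only through the genotype where they were high, so no reading rests on these counts. CCHa1, AstC, Proc and AstA are named here because their values were seen. CCHa1 had 4251 counts in mutants and 0 in wild type, at least 1382-fold higher if wild type is taken at 3 counts over the group, and all of them came from mutant cell MFB8. The same cell held 89.2% of the mutant counts of Ms, the myosuppressin gene, whose ratio of 2.43 was 0.44 without the top cells. AstC, which encodes allatostatin C, had 99.5% of its mutant counts in MFB6, and its ratio of 2.13 was -2.98 without the top cells. Proc (proctolin) was at 17.2 against 43.3 CPM (-1.28), with 5 of 40 wild-type and 3 of 49 mutant cells at 100 CPM or more, and its ratios in the stretches were -2.91 and 4.50. AstA, which encodes allatostatin A and was not tested, was at 0.33 against 29.4 CPM. Dh44 was at 220.6 against 470 CPM (-1.09), at 100 CPM or more in 6 of 49 and 8 of 40 cells. It was up to 12584 and 18889 CPM in a cell, with ratios of -3.22 and -2.94 within the stretches. By the mean of per-cell CPM its ratio was -0.40. The cell with the most Dh44 reads held 60.05% of the counts in mutants and 55.4% in wild type. Nplp1, the neuropeptide-like precursor 1 gene, was read more widely, at 100 CPM or more in 43 of 49 and 35 of 40 cells, with medians of 866 and 844 CPM and sums of 814 against 1163 CPM (-0.51).

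Genes of other transmitters were mostly low, apart from VGlut, the vesicular glutamate transporter. VGlut ranged from 0 through 854 to 2631 CPM in mutant cells and from 0 through 1149 to 3027 CPM in wild-type cells, and was at 829 against 1238 CPM in the sums (-0.58; -0.44 and -0.28 within the stretches). It reached 100 CPM in 43 of 49 mutant and 39 of 40 wild-type cells. Gad1, which makes GABA, was at 35.8 against 18.8 CPM, with 63.5% of the mutant counts in MFB41 and a ratio of 0.90 that was 0.04 without the top cells. Mutant cell MFB43 carried markers of serotonin neurons, with Trh at 6944 CPM, the serotonin transporter gene SerT at 827 CPM and Ddc at 7887 CPM. In all other mutant cells Trh was at most 111.2 CPM and SerT at 0. Mutant cell MFB8 had ChAT, the acetylcholine-synthesizing enzyme, at 143 CPM, and the next mutant cell had 64.03 CPM. Whether such cells hold more than 1 neuron was not tested, and no doublet caller was run.

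Genes of corepressor complexes and partner proteins of Nervy lay on both sides of 0. Of 18 listed 14 were tested, none differed by 2-fold, 6 were above 0, and the median was -0.17. Over all genes tested 1.76% were 2-fold higher, 1.09% 2-fold lower and 53.3% above 0, so a count of 0 in 14 is near the background. HDAC1 was at 61.3 against 67.2 CPM (-0.13), HDAC3 at 70.9 against 53.96 CPM (0.39), Smr, the fly SMRT/NCoR corepressor, at 84.3 against 97.6 CPM (-0.21), and the bHLH factor gene da at 145.9 against 187 CPM (-0.35). Pka-R2, the protein kinase A subunit that Nervy anchors, was at 512 against 615 CPM (-0.26). PlexA, its partner receptor in axon guidance, belongs to the guidance list and was at 79.8 against 45.9 CPM (0.78), above the middle 90% of all genes. In that list Nlg4 and beat-Ia also lay above this range, and sli, beat-Ic, robo3 and Fas2 lay below it. PlexA was not picked by the naming rule, and its ratio was not followed through the alternatives. No reading rests on its value.

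Among guidance and adhesion genes 1 of 41 was at least 2-fold higher and 1 at least 2-fold lower, with a median of 0.01. All genes tested gave 1.76% and 1.09%, so these counts are near the background. The lower gene was sli, the ligand of Robo receptors, at 19.3 CPM (17.9 to 20.8) against 50.04 CPM (47.8 to 52.4), a ratio of -1.33 that was -0.32 and -2.39 within the stretches. It reached the minimum of 20 CPM only through wild type. Its median cell was higher in mutants, at 10.8 against 4.01 CPM, and 1 wild-type cell, WFB25, held 28.9% of the wild-type counts. The higher gene, Nlg4, a neuroligin named after its value was seen, was at 49.7 against 22.6 CPM (1.102). The Dpr and DIP immunoglobulin proteins pair across synapses. Of 25 tested genes 1 was 2-fold lower and none 2-fold higher (all genes tested: 1.09% and 1.76%), with a median of 0.03. DIP-delta, which binds Dpr12, was at 32.9 against 72.6 CPM (-1.12; 0.00 and -2.70 within the stretches), DIP-theta at 88.2 against 176 CPM (-0.99; -0.80 and -0.89) and DIP-beta at 161 against 286.6 CPM (-0.83; -1.08 and 0.84, of opposite sign). The gene dpr12 was at 305 against 213.8 CPM (0.51).

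Of 7 tested sex determination and dosage compensation genes 1 was at least 2-fold lower, where all genes tested gave 1.09%. This gene was fru, whose products pattern male courtship circuits. It was at 266.5 CPM (261.3 to 271.8) in mutants against 569 CPM (561 to 577) in wild type, a ratio of -1.09. The medians per cell were 166 and 182.9 CPM, with 1558 and 4327 CPM in the highest cells. The wild-type cell with the most fru reads carried 28.1% of the wild-type counts. The ratio was -0.48 in the mean of per-cell CPM and -1.65 and 0.17 within the stretches. Sxl, the switch gene of female development, was at 363 against 385 CPM (-0.08). The male-specific roX2 RNA had no read in either group, which allows up to 0.08 CPM, and roX1 came almost wholly from 1 cell of each genotype.

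Lists of general neuronal and cellular function had medians from -0.29, for dopamine and serotonin receptors, to 0.15, for glutamate and GABA receptors. Beside the counts given here, 1.76% of all genes tested were at least 2-fold higher and 1.09% lower, and no reading rests on these counts. Of 25 tested ion channel genes 1 was 2-fold higher, the EAG-family potassium channel gene Elk, at 129 CPM (125 to 132.7) against 61.5 CPM (58.9 to 64.1), a ratio of 1.06 that was 0.85 and 1.12 within the stretches. It was at 100 CPM or more in 22 of 49 mutant and 10 of 40 wild-type cells, and its median cells were at 71.9 and 40.3 CPM. Of 12 glutamate and GABA receptors 1 was 2-fold lower, GABA-B-R3 at 22.2 against 47.6 CPM (-1.07; -1.41 and -0.81 within the stretches), and the median was 0.15. Of 10 activity-regulated genes 1 was 2-fold lower, Jra, the fly c-Jun, at 17.02 against 35.1 CPM (-1.002), while its partner gene kay, the fly c-Fos, was at 70.1 against 43.9 CPM (0.66). Jra reached the minimum of 20 CPM only through wild type. None differed by 2-fold among 24 genes of synaptic vesicle release (median -0.05), 19 of cAMP and G-protein signalling (0.04), 11 of peptide processing (-0.08), 6 dopamine and serotonin receptors (-0.29), 10 nicotinic and muscarinic receptors (0.06) and 7 clock genes (-0.05). The same held for 81 ribosomal protein genes (-0.03), 65 of oxidative phosphorylation (0.02), 16 of the vacuolar proton ATPase (0.05) and 17 heat shock genes (-0.06). Of the innexins 1 was tested (shakB, -0.24), and of the immune effector genes none.

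**Figure D5:**
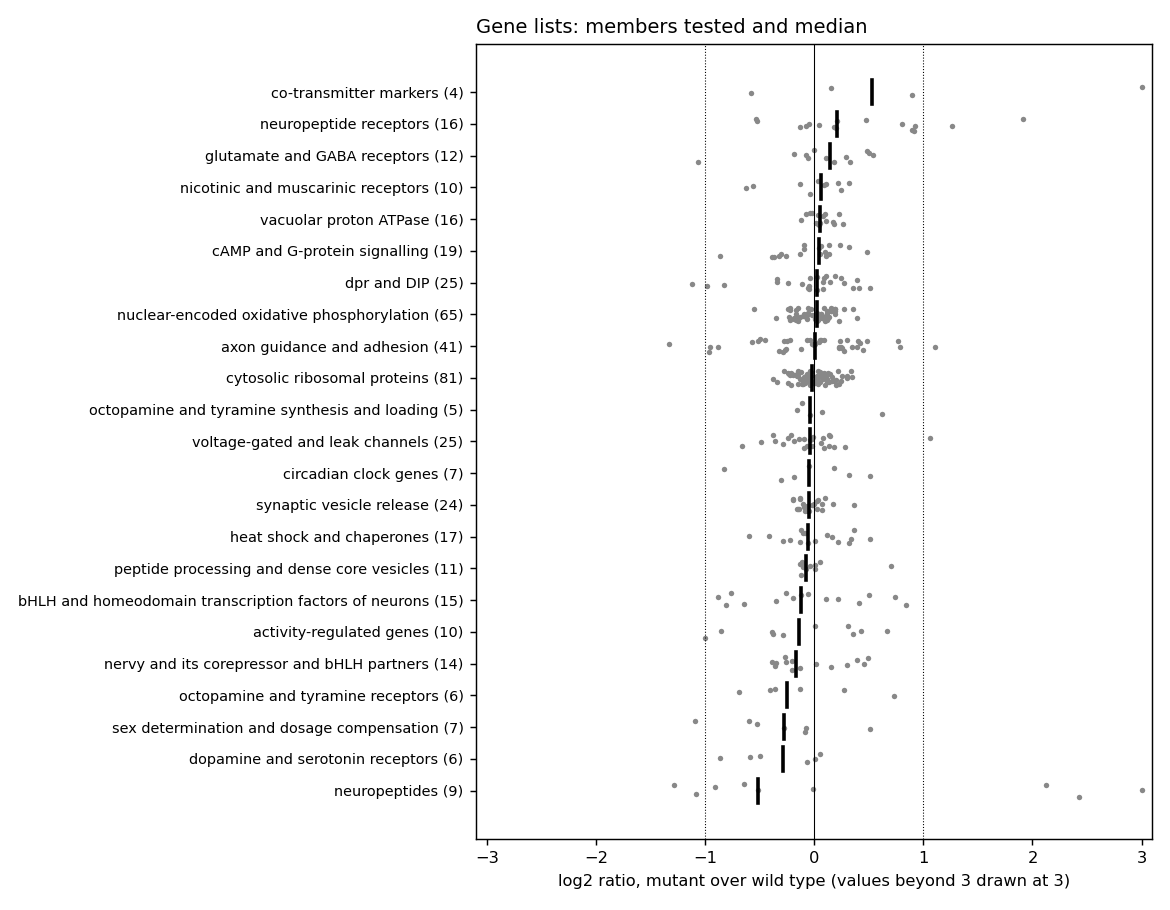
For each gene list with at least 4 tested members (number in brackets), grey points are the members' log2 ratios, mutant over wild type, and the black bar is their median; dotted lines mark 2-fold. Most medians lie between -0.3 and 0.3, the exceptions being the co-transmitter markers (0.52, 4 genes) and the neuropeptides (-0.51, 9 genes).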

How the data were processed

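HOMER's analyzeRepeats.pl gave exon read counts on dm6, unnormalized and condensed to 1 entry per gene, per the file headers. The deposited values were multiples of 0.5, with 56.2% of those above 0 whole, and were handled as estimated counts. The aligner, program versions and strand setting were not given in the sources used here. Gene positions come from Ensembl's annotation of the same assembly.

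Python 3.11.15 with numpy 2.4.6, pandas 2.3.3 and scipy 1.17.1 summed counts over a group's cells and divided by the sum over 17104 listed genes (CPM). Sums carry exact Poisson intervals and shares exact Clopper-Pearson intervals at 95%, from rounded counts; amplified reads are not independent molecules. Columns correlating at 0.95 or more counted as near-identical. The summing was tested on simulated counts.

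Genes were named where the mean reached 20 CPM and 3 ratios and the thinned share of cells with a read shared 1 direction; the 12 highest and 12 lowest by the smallest ratio were taken, with up to 4 members per list and 14 genes whatever their values. Members, lists and rule were chosen with earlier results of these data known. Doublets were not called. No sequences were read.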

Additional observations from a re-analysis of the deposited data

Results flagged for a closer look

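For 4 named genes the female and male log2 ratios, mutant over wild type, were at least 2-fold in opposite directions. The difference between the sexes was not tested, and it cannot be told apart from the S number, which was below S192 in all males. Ms was 2.43 in females and -1.21 in males, with 1 mutant female cell setting the female value. CCHa1 was 6.84 in females, all from 1 cell, and -2.95 in males, where mutants had no read and wild type 6.71 CPM. Ssu72 was 1.86 in females and -1.08 in males. CG8641 was -1.39 in females and 1.94 in males, at 20.2 against 4.55 CPM.

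Of the female cells left out of the comparison, 9 had passed the minimum of counts and genes. Among these 9, 5 held a strong signal of Gs2, the glutamine synthetase gene typical of glia. Its highest level in a kept cell was 647 CPM. Mutant cell MFB18 was at 51183 CPM, and wild-type cells WFB1, WFB4, WFD1 and WFD2 at 54472, 4426, 22645 and 10747 CPM. In these 5 cells Tdc2 was at 77.7 CPM or below, and repo was at 616 CPM in WFD1. The other 4, wild-type cells WFB2, WFB3, WFB5 and WFB6, had Gs2 between 0 and 122.8 CPM and Tdc2 between 5512 and 8683 CPM, and were left out by their S numbers.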

How the results depend on the processing

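Without replicates, precision was limited by the cells and animals sampled rather than by counting. The shares of tested genes at least 2-fold higher (1.76%) and lower (1.09%) became 0.946% and 0.390% by the mean of per-cell CPM, 0.163% and 0.217% at a minimum of 100 CPM, and 5.90% and 4.57% at a minimum of 1 CPM. They were 3.95% and 3.80% within S192 to S240 and 12.0% and 7.68% at S241 or higher, which hold fewer cells and were chosen after seeing the data, as was a minimum of 3000 genes per cell. The other alternatives gave 1.30 to 2.43% and 0.816 to 1.32%. The difference in median genes per cell, 73 more in mutants, was -89.5 without thinning and -11.5 at 100000 reads. Shares of cells with little Tbh were the same at under 500 CPM. Of 37 named genes at least 2-fold, 26 kept their sign in every alternative. Their ratios took the opposite sign for alrm (0.33) without a Tdc2 minimum, for CG32698 (1.83) among cells with Tbh, and for AstC without its top cell (-2.98) and within S192 to S240 (-4.01). At S241 or higher they did so for fru (0.17), Ms (-2.88), NPFR (-0.20), Proc (4.50), rho (3.28), Pvf3 (2.25), CG16896 (1.80) and CG32698 (3.01), and CCHa1 was at 0 without its cell and at S241 or higher. Of 88 named genes under 2-fold, 37 took the opposite sign or 0 in 1 or more alternatives, among them nvy (3.83), DIP-beta (0.84), w (2.84) and sNPF (6.69) at S241 or higher and Gad1 (-0.84) from S192 to S240. The cause was not tested. Of 25 list medians 6 kept 1 sign in every alternative, stretches included. That of neuropeptide receptors was above 0 (0.04 to 0.68), and those of neuropeptides (-0.78 to -0.13), dopamine and serotonin receptors (-0.47 to -0.03), octopamine and tyramine receptors (-0.86 to -0.10), peptide processing (-0.11 to -0.02) and ion channels (-0.11 to -0.01) were below 0. That of co-transmitter markers ranged from -0.58 to 1.40. No paired analysis was possible because the labels give no numbers that pair cells of both genotypes and no result comes from a test.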

Other observations

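Transcription factors of neuronal identity spread to both sides of 0. Of 53 listed bHLH and homeodomain genes and their like 15 were tested, none differed by 2-fold and 6 were above 0, with a median log2 ratio of -0.12. Over all genes tested 1.76% were 2-fold higher, 1.09% 2-fold lower and 53.3% above 0. The POU gene pdm3 was at 65.4 CPM in mutants against 121.5 CPM in wild type (-0.88) and vvl, another POU gene, at 36.3 against 62.5 CPM (-0.77), while pdm2 was at 47.1 against 25.9 CPM (0.84) and the Iroquois gene mirr at 121.5 against 72.3 CPM (0.74).

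The eye colour gene w was at 10.9 against 16.02 CPM (-0.51; 2.84 at S241 or higher), and the body colour gene y at 63.3 against 50.4 CPM (0.32). INPP5E, a phosphoinositide phosphatase gene, was at 55.6 against 28.5 CPM in females (0.94) and 37.6 against 15.3 CPM in males (1.24). Its female ratio was 0.32 by the mean of per-cell CPM. The chromatin remodelling gene polybromo was at 31.3 against 19.3 CPM in females (0.67) and at 28.6 against 13.5 CPM in males (1.03). These male values include the near-identical pairs. INPP5E and polybromo were fixed for naming with earlier results of these data known, so a shared direction in both sexes is no independent support.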
